A study of Mus musculus with 10 samples.

Results

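The regions described here are 3′-end features of mouse genes that share at least 1 base with a feature on the opposite strand and no base with another feature on their own strand. They were found from the coordinates and strands in the StringTie output, and 1903 of 43031 features (4.42%) met both conditions. Of these, 806 formed 403 pairs in which each feature overlaps only the other. The remaining 1097 members overlap a partner that shares bases with further features on its own strand (1033) or belong to a chain of 3 or more features (64). A feature consists of an annotated UCSC 3′UTR and of 2 kb added after its end, so an overlap can lie in the UTRs, in the added bases, or in both.

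RNA was sequenced from embryonic stem cells (ESC) of C57BL/6 mice in 3 groups of 3 libraries, all grown with LIF and serum on mitomycin-treated fibroblast feeders or on gelatin. The groups were wild type (WT), DIDO3ΔE16, in which the floxed exon16 specific to DIDO3 was deleted with Sox2-Cre, and DIDO3ΔCT+HADIDO3, in which ESC with a C-terminal deletion of DIDO3 were reconstituted with HA-tagged DIDO3. The reconstituted cells thus differ from WT by a deletion and by an added tagged protein, and no library of DIDO3ΔCT cells without HADIDO3 was analysed here. The same library number is given for WT replicates 2 and 3, which counted as 1 library (WT 2-3). Values are TPM as deposited, a relative abundance corrected for feature length. Separate cultures are not named in the labels, so the tests measure the spread between these libraries, which may be technical.

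DIDO3 is a large chromatin-associated protein whose gene, Dido1, gives several isoforms. When 2 neighbouring genes are transcribed toward each other, their 3′ ends face, and transcripts of one can run into the sequence of the other where transcription does not stop at the polyadenylation site. Polyadenylation is directed in part by a hexamer, most often AATAAA or ATTAAA, shortly before the end of the mRNA. Reads from such a shared stretch can be given to the right gene only if their strand is known and used. The study describes its sequencing as stranded, whereas no strand setting appears in the StringTie command recorded at the top of the files, so strand use is not given in the sources used here. If strand was not used, reads of overlapping partners cannot be told apart.

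The last 30 bases of the annotated 3′UTR were read from the GENCODE vM21 transcripts (GRCm38, the assembly of mm10) for members whose transcript could be matched. The hexamer AATAAA or ATTAAA was present on the transcribed strand in 566 of 825 members with sequence (68.6%) and in 247 of 352 features of pairs (70.2%). It was present in 13250 of 21519 of all features (61.6%), or in 7811 of 13637 (57.3%) with each 3′ end counted once. Of 77 pairs with both ends, 34 had it in both, 37 in 1 and 6 in neither. A hexamer is a match of letters only. The ends below belong to pairs and partners whose values are given further on, are written 5′ to 3′ along the transcript, and carry the hexamer in capitals. Gnmt and Mrpl35 have none in this window.

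Pex6 (chr17:46725512-46725541, forward strand): agtagaaAATAAAgtgtatactgcctccta
Gnmt (chr17:46725664-46725693, reverse strand): ggagtaaacaatacagtctgcattctccaa
Hapln4 (chr8:70090833-70090862, forward strand): aagtgctgagATTAAAggtgtaagccacca
Ncan (chr8:70093085-70093114, reverse strand): ggacattttAATAAAaattttttaacagtt
Shcbp1l (chr1:153452545-153452574, forward strand): taaattcaaagATTAAAatgtttaaatgct
Dhx9 (chr1:153455758-153455787, reverse strand): aatagaaAATAAAgtattatactgaaaatt
Utp20 (chr10:88746607-88746636, reverse strand): gtatttttaATTAAAatgttttatatgcta
Mrpl35 (chr6:71812997-71813026, reverse strand): ggcttagtaaatgagtaatgaatgaatgga
Ftl1 (chr7:45457944-45457973, reverse strand): caagtaaaAATAAAgctttttgagacagca
Atp5j (chr16:84827871-84827900, reverse strand): aaattcaAATAAAcattcatttcacagtta

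Bases in features ranged from 1.46 to 2.62 Gb per library, and a feature at 1 TPM was covered 0.434 to 0.775 times per base. The library codes of WT 1 and WT 4 begin with other characters than those of the 7 other libraries, and what the codes stand for is not given in the sources used here. None of the 6 Dido1 features is a member. Among them, uc008ojq.2 had 17.9, 16.8 and 13.7 TPM in WT, 0.546, 0.511 and 0.307 in DIDO3ΔE16 and 12.1, 11.5 and 10.9 in DIDO3ΔCT+HADIDO3. The Dido1 feature uc008ojv.2 was lower in DIDO3ΔE16 too, with 28.9 to 51.6, 6.2 to 7.0 and 43.7 to 46.5 TPM in the same order of groups. In contrast, uc008ojt.2 was far higher there, with 4.8 to 4.9, 81.6 to 96.0 and 7.3 to 8.6 TPM. Each marker gene was read from its most abundant feature only, so a low value need not be the level of the gene. All 8 ESC markers were above 0 in every library. Their summed TPM was 3563 to 4077 in WT, 4525 to 5681 in DIDO3ΔE16 and 4042 to 5260 in DIDO3ΔCT+HADIDO3. The Nanog feature had 1.03 TPM in WT 4 against 198 and 270 in the other WT libraries. Esrrb varied within groups as well, with 1.93 and 3.07 TPM in WT 1 and WT 4 against 391 in WT 2-3, and 3.53 TPM in DIDO3ΔCT+HADIDO3 2 against 735 and 628 in the other libraries of that group. For the 10 feeder fibroblast markers the sums were 588 to 649, 700 to 701 and 580 to 592, but Fn1 alone gave 411 to 491 TPM of them. Without it the markers did not move together: Col1a2 had 16.7 to 20.01 TPM in WT, 36.5 to 39.2 in DIDO3ΔE16 and 0.229 to 0.245 in DIDO3ΔCT+HADIDO3, with Col1a1 and Postn in the same order, while Thy1 was higher than in WT in both mutants. Dcn was at 0 in the 3 WT libraries and Col3a1 in the 3 of DIDO3ΔCT+HADIDO3. The part of feeder RNA in the values below was not tested. In cell cultures measured in bulk, fewer cells of a type and less RNA per cell cannot be told apart.

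The 2 features of a pair shared 7 to 4772 bases (median 1709), which was a median of 68.2% of the shorter feature. In 79 pairs the annotated UTRs themselves overlap or have passed each other. In 213 pairs the annotated 3′ ends lie 1 to 1980 bases apart, so that the bases added to a feature reach the UTR of its partner. In the other 111 pairs the 3′ ends lie 2015 to 3993 bases apart and only the added bases overlap. In 84 pairs the shorter feature lies wholly inside the longer. For comparison, 243 neighbouring pairs on opposite strands do not overlap, and their nearest edges, added bases included, lie within 5 kb of each other. The 3′ ends face each other in 203 of these and point away from each other in the rest. The values given below for neighbouring pairs are not split by this.

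Members that lie wholly inside their partner were nearly always listed at 0. With a partner of at least 1 TPM on average, 144 of 161 such members (89.4%) had a TPM of 0 in all 9 libraries. None of 543 members with under 50% of their bases inside the partner did, against 11 of 421 (2.61%) at 50 to under 90% and 4 of 67 (5.97%) at 90 to under 100%. Features that overlap nothing on either strand were at 0 throughout in 1311 of 13712 cases (9.56%). With partners of any level the share of contained members at 0 was 191 of 220 (86.8%). The plot of mean TPM by the share inside the partner shows the step at full containment.

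**Figure D1:**
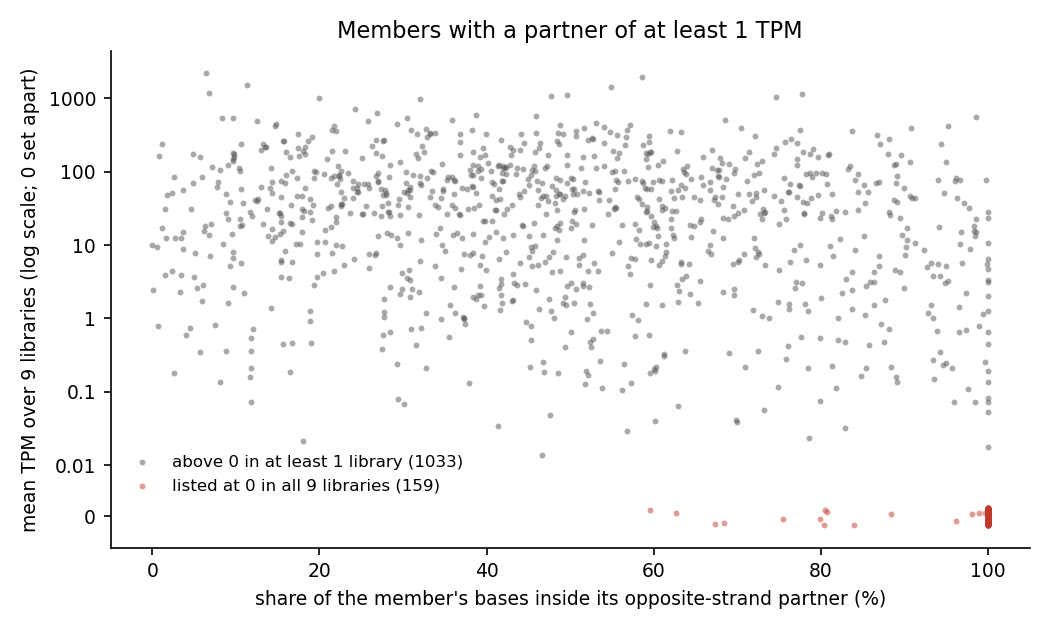
Mean TPM of 1192 members with a partner of at least 1 TPM, on a log scale with 0 set apart, against the percent of the member's bases that lie inside its opposite-strand partner. Each point is 1 member. The 159 members listed at 0 in all 9 libraries (red, spread a little for visibility) gather at 100%, and none lies under 50%.

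The members at 0 include genes that nearly every cell uses. Ftl1 is the light chain of ferritin, the iron storage protein, and its feature on the reverse strand (chr7:45455944-45458106) lies inside that of Gys1, the muscle glycogen synthase (chr7:45455368-45458617). Ftl1 was listed at 0 in every library, whereas Gys1 had 1133, 1297 and 1340 TPM in WT, 1436, 1279 and 1222 in DIDO3ΔE16 and 1171, 1130 and 1010 in DIDO3ΔCT+HADIDO3. Both mutant groups of Gys1 overlap WT, the mutants do not overlap each other, and no comparison called it. Flot1, which encodes the lipid raft protein flotillin, was at 0 inside Tubb5, a β-tubulin gene of 706 to 907 TPM. Tomm22, a receptor of mitochondrial protein import, was at 0 inside Josd1, a gene of a deubiquitinase with 305 to 347 TPM. The profilin gene Pfn1 was at 0 inside Rnf167, and Snf8, of the endosomal sorting complex ESCRT-II, was at 0 inside Ube2z. Hsp90ab1, the constitutive cytosolic HSP90, was at 0 inside Slc35b2 (mean 148 TPM), and Snrnp200, the Brr2 helicase of the spliceosome, inside Ciao1 (mean 160 TPM). Each of these genes has no other feature in the files, so a 0 here says only how the feature is listed.

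The same holds for the pairs with the largest shared stretch. In 2610028H24Rik/Ybey the 4772 bases of 2610028H24Rik all lie in Ybey, an endonuclease of ribosomal RNA, with 20.1, 18.1 and 19.2 TPM in WT, 20.3, 20.5 and 22.9 in DIDO3ΔE16 and 14.8, 14.7 and 15.03 in DIDO3ΔCT+HADIDO3. In Grpel1/Tada2b, Tada2b (an adaptor of the SAGA complex) was at 0 and Grpel1 (a cochaperone of mitochondrial HSP70) lay between 83.1 and 100.9 TPM. In Styx/Gnpnat1, Gnpnat1, an enzyme of UDP-GlcNAc synthesis, was at 0 and Styx had 97.6, 92.1 and 91.3 TPM in WT, 82.6, 81.8 and 79.3 in DIDO3ΔE16 and 67.4, 75.4 and 80.4 in DIDO3ΔCT+HADIDO3. None of the 3 partners passed the fold threshold of the call rule given below.

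Exceptions were few. Of the 17 contained members above 0 in some library and with a partner of at least 1 TPM, Gnpat, an enzyme of plasmalogen synthesis inside Exoc8, had the highest level among those above 0 in all 9 libraries, with 26.7, 24.3 and 31.3 TPM in WT, 14.4, 21.9 and 20.2 in DIDO3ΔE16 and 42.7, 37.8 and 33.2 in DIDO3ΔCT+HADIDO3. Nubp1, an assembly factor of iron-sulfur proteins inside Tvp23a, was at 0 in DIDO3ΔE16 1 and 3 and between 2.89 and 4.83 TPM in the other libraries. Naxe, an epimerase that repairs damaged NADH, had 151 TPM in WT 1, 56.5 in DIDO3ΔCT+HADIDO3 2 and 0 in the other 7 libraries. Its partner Gpatch4 (uc008ptr.3) lay between 62.6 and 200 TPM in all of them, whereas a further Gpatch4 feature (uc008pts.3) had 167 and 222 TPM in those 2 libraries and at most 7.02 in the rest.

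Values under 0.1 TPM in some libraries of a group and at least 10 TPM in others were rare. Among 1903 members, Naxe and Cxcr5 showed them in WT and Naxe in DIDO3ΔCT+HADIDO3, and none of 13712 features that overlap nothing did. Cxcr5, a chemokine receptor gene, had 12.5 TPM in WT 2-3, and 0 and 0.0376 TPM in the other WT libraries. Its partner Bcl9l (uc009pdu.1), a Wnt coactivator gene, moved with it, at 16.3 TPM in WT 2-3 and at most 0.0375 elsewhere, whereas a copy at the same position (uc009pdw.1) had 12.7 to 43.9 TPM. With a limit of 1 TPM, Wfdc2 joined them in DIDO3ΔE16, and so did 1 of the features that overlap nothing in WT and 1 in DIDO3ΔE16. It had 19.4 TPM in DIDO3ΔE16 2 and 0.341 to 0.725 in all other libraries, while its partner Spint3 had 2.12 TPM in that library and 40.3 to 67.8 in the others. The 2 features thus moved in opposite directions in that library.

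Where neither feature contains the other, a widely used gene could still lie far below its partner. The largest sums in WT were those of Fam166a/Tubb4b, Trim28/Chmp2a and Gys1/Ftl1. Fam166a had 2053 to 2431 TPM over the 9 libraries, against 14.6 to 23.7 for Tubb4b, a β-tubulin gene. The pair shares 136 bases, all of them in the annotated Tubb4b UTR of 150 bases. Rpl32 (mean 28.4 TPM) stood beside Cand2 (567 TPM), Rpl35 (0.0732) beside Wdr38 (176), and Polr2i, a subunit of RNA polymerase II (0.751), beside Ovol3 (245). Over 33 such pairs with a gene of a ribosomal, respiratory, proteasome or similar family, the gene was lower than its partner in 14 (42.4%). Among neighbouring pairs without overlap it was lower in 4 of 20 (20%). The families were chosen after such values had been seen, so these counts are a description. Of 283 pairs with both features measured, the forward feature was higher in 125, the longer in 150, and the 2 differed by 10-fold or more in 141.

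The pair sum was computed as TPM × length added over both features and divided by their summed length, which gives a TPM for the pair. In most pairs it was steady within a group. Among pairs with a mean sum of at least 5 TPM, the median ratio of the highest to the lowest library within a group (the largest of the 3 groups) was 1.12 where added bases reach a UTR and 1.13 where UTRs overlap. The neighbouring pairs had a median of 1.15. Where only added bases overlap, the median was 1.94.

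Of these last pairs, 55 of 89 (61.8%) had a sum that differed by 1.5-fold or more within a group. The share was 7 of 177 (3.95%) where added bases reach a UTR, 3 of 73 (4.11%) where UTRs overlap, 5 of 156 (3.21%) for neighbouring pairs and 327 of 5539 (5.90%) for single features that overlap nothing. Among members outside pairs it was 181 of 702 (25.8%). The 55 ranges centred on 2.09, with a lower quartile of 2.00. By the distance between annotated 3′ ends, the share was 1 of 63 at 0 to 500 bases, 6 of 35 at 1500 to 2000, 25 of 33 at 2000 to 2500, 12 of 19 at 2500 to 3000, 10 of 14 at 3000 to 3500 and 8 of 23 at 3500 to 4000. Of the 7 pairs with wide ranges whose added bases reach a UTR, 5 had ends 1845 to 1980 bases apart. The wide ranges were thus frequent where the added stretches reach little or nothing of the partner's UTR, as the plot of ranges by distance shows.

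**Figure D2:**
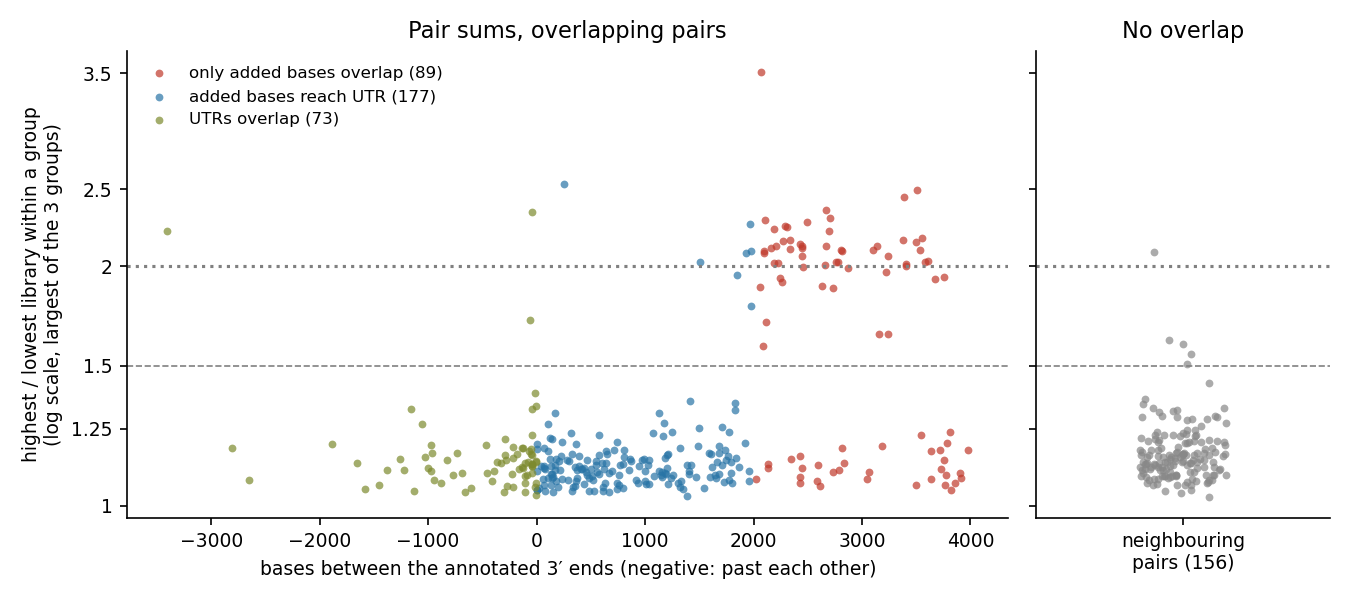
Ratio of the highest to the lowest library within a group for the pair sum (log scale, largest of the 3 groups) against the bases between the annotated 3′ ends, for pairs with a mean sum of at least 5 TPM. Negative distances mean that the ends have passed each other. Each point is 1 pair, the dashed line marks 1.5 and the dotted line 2. Most pairs in which only added bases overlap (red) lie near 2, and the neighbouring pairs without overlap (right, spread sideways for visibility) lie mostly under 1.5.

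In the 55 pairs the features fell together, with few exceptions. In 49 of them, high libraries and libraries under 0.7 of the highest occurred within the same group. The choice of these pairs by their range within a group largely sets that count. Among the 47 pairs with both features above 0 in all libraries, both were lower in the low libraries in 46. The median ratio of low to high libraries was 0.511 for the sum (quartiles 0.482 and 0.544), 0.510 for the more abundant and 0.476 for the less abundant feature. Low libraries were defined by the sum, so the fall of the sum and of the more abundant feature is largely set by that choice too. Each of the 9 libraries was low in 27 to 41 of the 55 pairs.

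Reep1 encodes a protein that shapes the endoplasmic reticulum, and Mrpl35 a protein of the large mitochondrial ribosomal subunit. Reep1 had 56.1, 56.2 and 29.6 TPM in WT, 74.8, 81.6 and 44.1 in DIDO3ΔE16 and 58.5, 28.3 and 61.6 in DIDO3ΔCT+HADIDO3. Mrpl35 had 63.0, 61.3 and 30.1 TPM, then 57.0, 61.0 and 29.6, then 72.5, 35.0 and 80.8. WT 4, DIDO3ΔE16 3 and DIDO3ΔCT+HADIDO3 2 were low for both, and the 3 groups overlap. In Snapc5/Map2k1, Map2k1 (the kinase MEK1) had 501, 465 and 243 TPM in WT, 413, 220 and 213 in DIDO3ΔE16 and 420, 437 and 434 in DIDO3ΔCT+HADIDO3. Snapc5, a subunit of the complex that activates small nuclear RNA genes, was low in the same 3 libraries as Map2k1, with 87.1, 89.0 and 36.8 TPM, then 52.4, 24.9 and 23.6, then 71.2, 75.5 and 77.8. The low libraries thus differed from pair to pair. In Triap1/Cox6a1, Cox6a1, a subunit of cytochrome c oxidase, had 178 TPM in WT 2-3 against 336 and 403 in the other WT libraries, and Triap1 had 103 against 184 and 192.

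**Figure D3:**
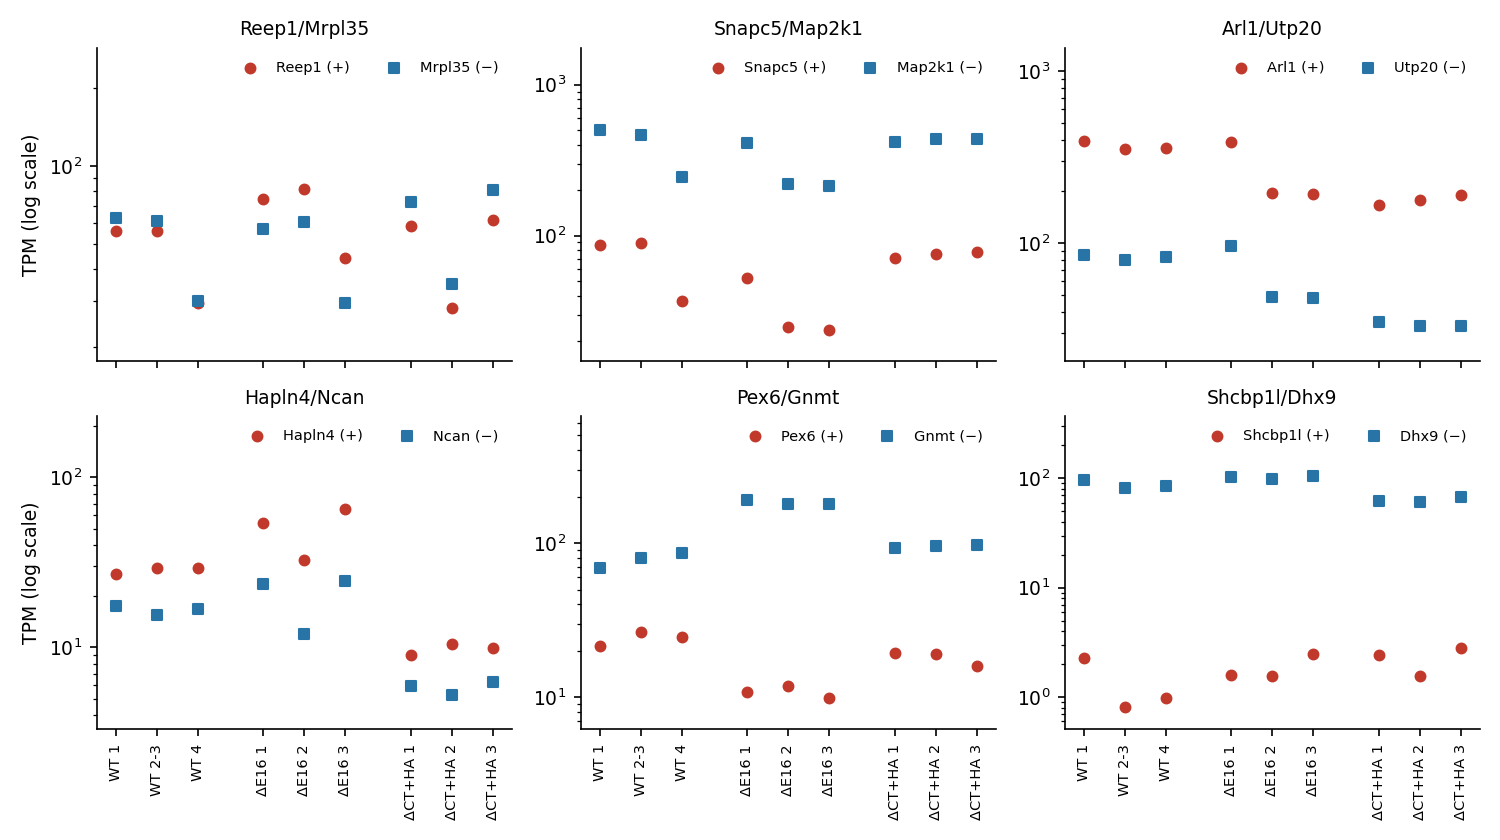
TPM (log scale) of both features of 6 pairs in the 9 libraries, with forward-strand features as red circles and reverse-strand features as blue squares. In the upper row (Reep1/Mrpl35, Snapc5/Map2k1, Arl1/Utp20) and in Hapln4/Ncan both features drop in the same libraries, while in Pex6/Gnmt they move apart in DIDO3ΔE16 and in Shcbp1l/Dhx9 the 2 features lie more than 10-fold apart in every library.

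Joint variation was also described by the Pearson correlation of the 2 features of a pair over the 9 libraries, after the mean of each group had been taken from log2(TPM + 0.1). The 9 points share depth and scaling with each other in every pair. The median r was 0.101 over 256 overlapping pairs and −0.0288 over 160 neighbouring pairs. It was 0.707 over the 80 pairs in which only added bases overlap, 34 of them above 0.8 and 0 below −0.8. Where added bases reach a UTR it was −0.000932 (118 pairs), and where UTRs overlap −0.0867 (58 pairs, 9 of them below −0.8 and 1 above 0.8). Within groups, the SD of the log2 pair sum had a median of 0.332 where only added bases overlap, close to that of a single feature (0.354). It was 0.0699 against 0.117 where added bases reach a UTR, 0.0688 against 0.115 where UTRs overlap and 0.0892 against 0.145 in neighbouring pairs.

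**Figure D4:**
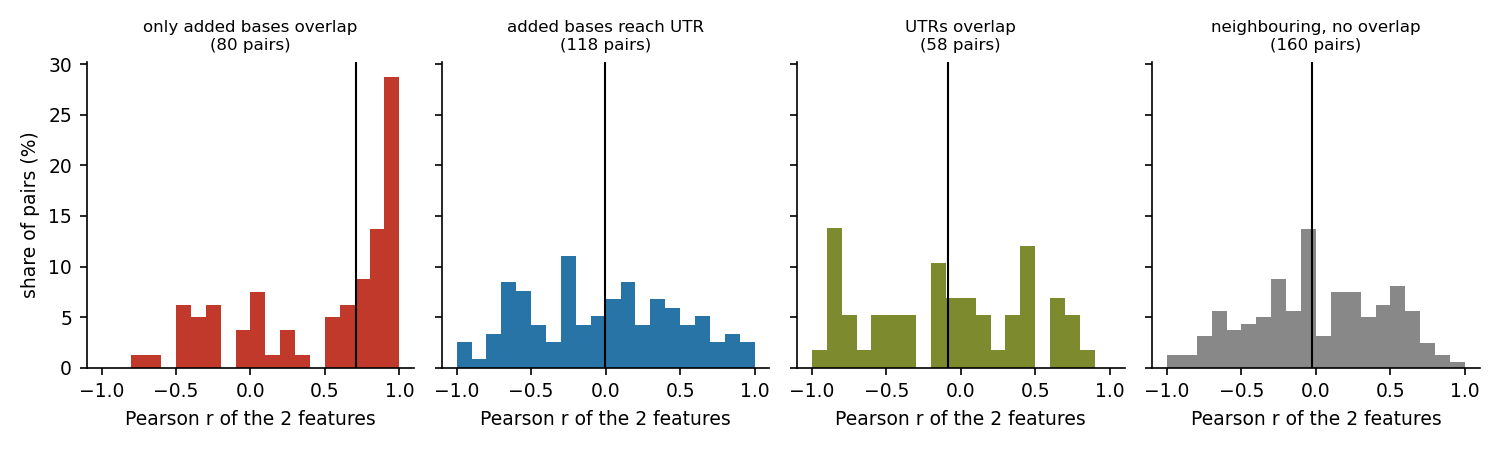
Share of pairs (%) by the Pearson r of their 2 features over 9 libraries after group means were removed, for the 3 kinds of overlapping pair and for neighbouring pairs. Black lines mark the medians (0.707, −0.000932, −0.0867 and −0.0288), and only the first kind piles up near 1.

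Differences between the groups were tested next, to learn whether the features of a pair moved together. Libraries were scaled, and log2(TPM + 0.1) was compared with limma for features above 0 in every library of a comparison. Calls required a log2 fold change of 0.7 or more in size together with an adjusted p under 0.05 (Benjamini-Hochberg over all features tested). An exact permutation test of single values was not used, since its p is at least 0.1 with 3 libraries in each group. Between DIDO3ΔE16 and WT, 191 of 1514 members tested were called (12.6%), against 12.3% of all features. Of these, 131 were higher (8.65%, against 8.17%) and 60 lower (3.96%, against 4.14%). Between DIDO3ΔCT+HADIDO3 and WT, 192 of 1506 members were called (12.7%, against 13.5%), 117 of them higher (7.77%, against 7.81%) and 75 lower (4.98%, against 5.67%). Both shares lie near those of all features. Between DIDO3ΔE16 and DIDO3ΔCT+HADIDO3, 369 of 1518 members were called (24.3%, against 22.6%). Of these, 182 were higher (12%, against 11.5%) and 187 lower in DIDO3ΔE16 (12.3%, against 11%). Features that overlap nothing on either strand were called more often than members. Their shares were 15.9% for DIDO3ΔE16 and 19.8% for DIDO3ΔCT+HADIDO3 against WT, and 30.5% between the mutants. This difference was not tested.

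The WT comparisons use the same 3 WT libraries. With the start of the library code as a covariate, where only WT 2-3 shares that of the mutants, the DIDO3ΔE16 calls among members dropped to 120. The replicate number as a block left 0 calls among members in both comparisons with WT, where 411 and 457 had an unadjusted p under 0.05, and 310 between the mutants, but the numbers do not pair the libraries. Against WT, the block also takes up WT 4 and replicate 3 of the mutant, whose numbers the other group lacks.

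Pairs with both features called were few in the WT comparisons. Of all features, 12.3% (DIDO3ΔE16 against WT), 13.5% (DIDO3ΔCT+HADIDO3 against WT) and 22.6% (between the mutants) were called. The pair counts were not compared with those that such shares alone would give, nor with neighbouring pairs, so they are a description. Of 265 pairs with both features tested between DIDO3ΔE16 and WT, 3 had both called in the same direction, 3 in opposite directions, 54 had 1 called and 205 none. Of 258 between DIDO3ΔCT+HADIDO3 and WT, the counts were 5, 1, 43 and 209. Of 262 between the mutants, they were 17, 2, 82 and 161. The plot of fold changes shows most called features near an axis, with little change in the partner.

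**Figure D5:**
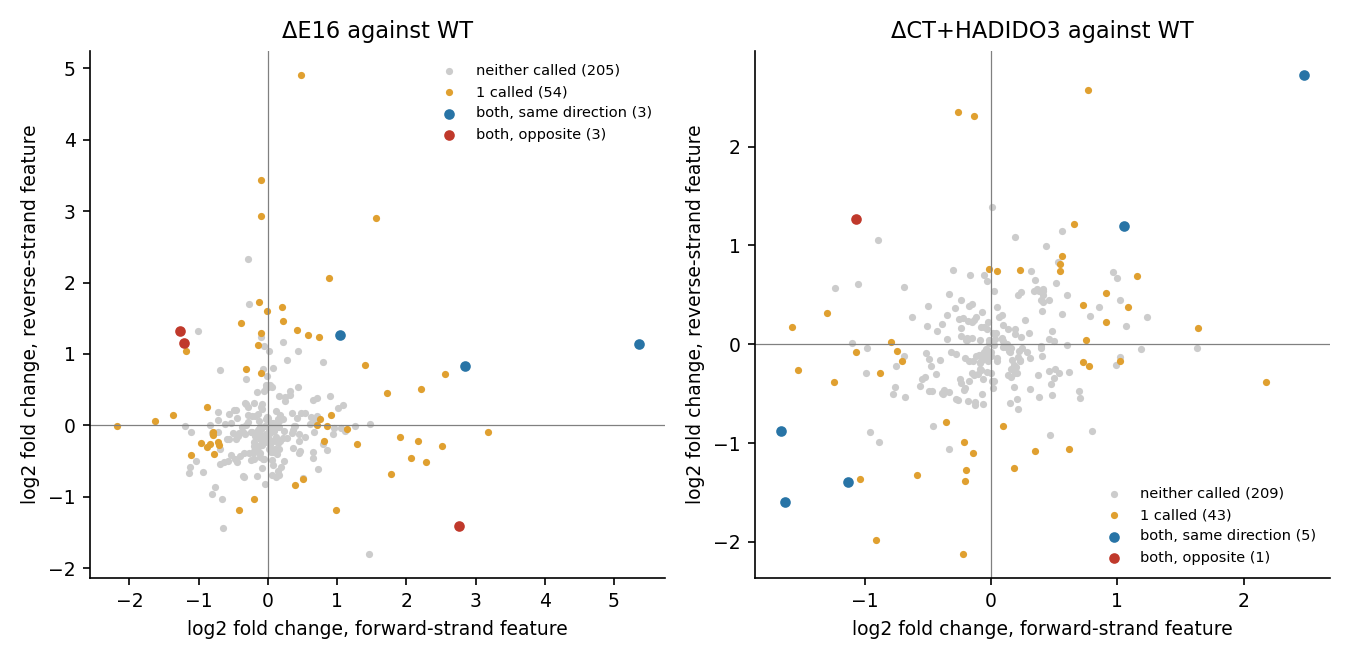
Log2 fold change of the reverse-strand feature against that of the forward-strand feature for pairs with both features tested, DIDO3ΔE16 (left, 265 pairs) and DIDO3ΔCT+HADIDO3 (right, 258 pairs) against WT. Each point is 1 pair, coloured by whether neither, 1 or both features were called. The pairs with both called (blue and red) number 6 on the left and 6 on the right.

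The pair sums were called less often than units of the whole fit. Of 385 sums tested between DIDO3ΔE16 and WT, 32 were called (8.31%), 22 higher and 10 lower, against 12.2% of all units (pairs and single features). Of 383 between DIDO3ΔCT+HADIDO3 and WT, 35 were called (9.14%), 20 higher and 15 lower, against 13.5%. Of 388 between the mutants, 75 were called (19.3%), against 22.5%. The 55 pairs with wide ranges gave 4, 7 and 12 of these, and the counts without those pairs were 28, 28 and 63. The difference between these shares was not tested.

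The log2 ratio of the forward to the reverse feature was called in 72 of 265 pairs between DIDO3ΔE16 and WT (27.2%), against 58 of 166 neighbouring pairs (34.9%) and 30.2% of all pairs in the fit. Between DIDO3ΔCT+HADIDO3 and WT it was called in 48 of 258 (18.6%), against 58 of 162 neighbouring pairs (35.8%) and 25.2% of all pairs. Between the mutants it was called in 92 of 262 (35.1%), against 77 of 169 (45.6%) and 39.2%. The shares were lower for overlapping pairs than for neighbours in all 3 comparisons, and this difference was not tested.

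Between DIDO3ΔE16 and WT, Pex6/Gnmt was called in opposite directions whichever of the 6 libraries was left out. Pex6 encodes an ATPase of peroxisomal import, and Gnmt the glycine N-methyltransferase that consumes S-adenosylmethionine. The features share 475 bases (forward chr17:46725325-46727541, reverse chr17:46723664-46725799) and their annotated ends, printed above, lie 122 bases apart. Pex6 had 21.6, 26.7 and 24.6 TPM in WT, 10.8, 11.9 and 9.89 in DIDO3ΔE16 and 19.5, 19.1 and 15.96 in DIDO3ΔCT+HADIDO3. Gnmt had 69.3, 80.4 and 86.1 TPM, then 191, 179 and 179, then 93.4, 95.1 and 96.6. The DIDO3ΔE16 libraries were below all others for Pex6 and above all others for Gnmt. In DIDO3ΔE16 relative to WT the log2 fold change was −1.21 for Pex6 (standard error 0.12, adjusted p = 0.00329) and 1.16 for Gnmt (0.10, 0.0023). The pair sum rose as well, from 45.0, 53.0 and 54.8 TPM in WT to 99.1, 93.8 and 92.8 (log2 fold change 0.84, adjusted p = 0.00464), so the gain of Gnmt exceeded the loss of Pex6. In DIDO3ΔCT+HADIDO3 neither was called against WT (−0.51 and 0.18). Between the mutants both were called (−0.72 and 0.96), but Pex6 fell below the threshold without DIDO3ΔE16 3 (−0.65), DIDO3ΔCT+HADIDO3 1 (−0.66) or DIDO3ΔCT+HADIDO3 2 (−0.69).

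The other pairs called in opposite directions in DIDO3ΔE16 belong to the 55 with wide ranges. Ero1l, an oxidoreductase of the endoplasmic reticulum, had 444, 433 and 464 TPM in WT, 127, 145 and 293 in DIDO3ΔE16 and 520, 297 and 641 in DIDO3ΔCT+HADIDO3, with a log2 fold change of −1.41 (adjusted p = 0.0429) in DIDO3ΔE16. Its partner Gpr137c, with 0.761, 0.546 and 0.0895 TPM in WT, had 2.81, 3.35 and 3.58 in DIDO3ΔE16. Ubald2 had 584, 648 and 335 TPM in WT and 231, 209 and 211 in DIDO3ΔE16 (log2 fold change −1.27, adjusted p = 0.0281), whereas Qrich2, a gene of the sperm flagellum, had 0.954, 1.298 and 0.917, then 2.19, 3.27 and 3.29. The abundant feature carried nearly all of both sums. With any 1 of the 6 libraries left out, or with the library code as a covariate, 1 pair was called in opposite directions, Pex6/Gnmt.

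Slc5a2/BC017158 rose together in DIDO3ΔE16. Slc5a2 is the renal glucose transporter SGLT2. It had 7.07, 10.2 and 8.87 TPM in WT, 17.7, 18.8 and 19.3 in DIDO3ΔE16 and 12.2, 12.1 and 10.8 in DIDO3ΔCT+HADIDO3. BC017158 had 11.4, 11.9 and 8.79 TPM, then 28.2, 24.9 and 27.5, then 15.5, 16.8 and 17.2. For both, every DIDO3ΔE16 library lay above all the others, with log2 fold changes of 1.04 (adjusted p = 0.0104) and 1.27 (adjusted p = 0.00377) against WT. With the library code as a covariate Slc5a2 was no longer called (0.80). The log2 fold change of the pair sum was 1.18, at an adjusted p of 0.00241.

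B830017H08Rik/Car15 and Tmem190/Tmem238 also rose, from at most 4.53 TPM per feature in WT. B830017H08Rik had 0.197, 0.998 and 0.683 TPM in WT and 25.8, 34.9 and 21.9 in DIDO3ΔE16 (log2 fold change 5.36, adjusted p = 0.00376). Its partner Car15, a carbonic anhydrase, had 0.554, 0.769 and 0.624 TPM, then 1.66, 1.94 and 1.28. Tmem238 had 3.95, 4.53 and 3.46 TPM in WT, 7.04, 7.79 and 7.50 in DIDO3ΔE16 and 1.68, 2.03 and 2.26 in DIDO3ΔCT+HADIDO3, and was called higher in the first mutant (0.83, adjusted p = 0.00997) and lower in the second (−1.06, adjusted p = 0.00955). Tmem190 had at most 0.647 TPM in WT and 1.72, 2.50 and 2.55 in DIDO3ΔE16. The Car15 and Tmem190 calls were lost without 1 or another library.

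Of the 54 pairs with 1 feature called in DIDO3ΔE16, 4 are named here for the largest fold changes, among pairs at 1 TPM or more. In these the called feature was the minor partner of a more abundant and steadier one. Ccdc86 had 0.123, 0.214 and 0.141 TPM in WT, 7.85, 7.67 and 8.28 in DIDO3ΔE16 and at most 0.173 in DIDO3ΔCT+HADIDO3, a log2 fold change of 4.91 (standard error 0.18, adjusted p = 0.000305) in DIDO3ΔE16. Ptgdr2, a prostaglandin D2 receptor gene that shares 1900 bases with it, had 71.6, 72.1 and 66.2 TPM, then 99.6, 102 and 104, then 56.9, 53.4 and 49.5. Both were highest in DIDO3ΔE16, but the change of Ptgdr2 (0.48) was under the threshold. Polr2i had at most 0.129 TPM in WT and 1.53, 2.48 and 2.05 in DIDO3ΔE16 (3.18, adjusted p = 0.00133), beside Ovol3 with 229 to 262 TPM. Atp6v1e1, a subunit of the vacuolar proton pump, had 0.110, 0.285 and 0.0527 TPM in WT and 1.37, 3.36 and 3.36 in DIDO3ΔE16 (3.44, adjusted p = 0.0108), beside Slc25a18, a mitochondrial glutamate carrier, with 166 to 180 TPM. Atp6v1e1 was called in DIDO3ΔCT+HADIDO3 too, at 0.738, 1.73 and 1.05 TPM (2.31, adjusted p = 0.023). Rnf126, a ubiquitin ligase gene, had 0.288 to 1.2504 TPM in WT and 7.15, 6.21 and 5.51 in DIDO3ΔE16 (2.93, adjusted p = 0.0162), beside Fgf22 with 109 to 132 TPM. The sums of the last 3 pairs had log2 fold changes of −0.08 to −0.03. The shared bases made up 4.46%, 88.0% and 85.9% of the shorter feature in these, in that order, and 58.6% in Ptgdr2/Ccdc86. In Polr2i/Ovol3 they include the whole annotated Polr2i UTR, which has 40 bases. How reads of the shared bases were divided between partners was not tested.

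In DIDO3ΔCT+HADIDO3, Hapln4/Ncan fell together. Both genes encode proteins of the hyaluronan matrix of the brain, a link protein and the proteoglycan neurocan, and they share 1778 bases. Hapln4 had 26.9, 29.5 and 29.4 TPM in WT, 53.9, 32.6 and 65.6 in DIDO3ΔE16 and 9.03, 10.4 and 9.94 in DIDO3ΔCT+HADIDO3. Ncan had 17.4, 15.6 and 16.9 TPM, then 23.7, 11.99 and 24.5, then 5.91, 5.27 and 6.29. The DIDO3ΔCT+HADIDO3 libraries lay below all others for both, with log2 fold changes of −1.63 (adjusted p = 0.000522) and −1.60 (adjusted p = 0.000779) against WT. DIDO3ΔE16 2 was low for both features within its group, and this pair is 1 of the 55 with wide ranges.

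Arl1/Utp20 fell likewise. Arl1 is a small GTPase of the Golgi, and Utp20 takes part in the maturation of ribosomal RNA. Arl1 had 391, 351 and 357 TPM in WT, 389, 196 and 194 in DIDO3ΔE16 and 166, 178 and 191 in DIDO3ΔCT+HADIDO3. Utp20 had 86.0, 79.6 and 83.4 TPM, then 96.6, 48.5 and 48.1, then 34.9, 33.2 and 33.1. In DIDO3ΔCT+HADIDO3 the log2 fold changes were −1.13 (adjusted p = 0.000579) and −1.39 (adjusted p = 0.000303), and that of the sum −1.18 (adjusted p = 0.000377). DIDO3ΔE16 1 lay at or above the WT levels. DIDO3ΔE16 2 and 3 lay near the level of DIDO3ΔCT+HADIDO3 for Arl1, and between it and WT for Utp20. Arl1/Utp20 is also 1 of the 55 pairs with wide ranges. Its sum was 238, 120 and 119 TPM in DIDO3ΔE16 1, 2 and 3, a range of 2.00 within that group. In WT the sum was 233, 211 and 216 TPM, and in DIDO3ΔCT+HADIDO3 98.2, 103 and 110. Whether the fall in DIDO3ΔCT+HADIDO3 differs from the step within DIDO3ΔE16 was not tested.

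Dynlt1b/Tmem181b-ps rose in DIDO3ΔCT+HADIDO3, and this pair too is 1 of the 55. Dynlt1b, a dynein light chain gene, had 36.7, 71.8 and 32.6 TPM in WT, 122.5, 213 and 98.2 in DIDO3ΔE16 and 258, 268 and 262 in DIDO3ΔCT+HADIDO3 (log2 fold change 2.48, adjusted p = 0.00654). Its partner Tmem181b-ps had 4.62, 12.1 and 4.56 TPM, then 39.9, 82.2 and 39.3, then 43.7, 45.9 and 47.1 (2.73, adjusted p = 0.0105). In DIDO3ΔE16, Tmem181b-ps (2.91, adjusted p = 0.0188) and the pair sum (1.98, adjusted p = 0.0383) were called higher too, whereas Dynlt1b was not called (1.57, adjusted p = 0.0648). The related pair Dynlt1c/uc008ahd.3 had 1 feature called: uc008ahd.3 had 4.88, 2.02 and 5.45 TPM in WT and 23.9, 25.1 and 25.01 in DIDO3ΔCT+HADIDO3 (2.58, adjusted p = 0.0108). Dynlt1b and Dynlt1c are near-identical genes, and reads could have been split between them, so their values are uncertain.

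Capn12/Actn4 and Art1/Chrna10 were named by their ratios. Actn4, the α-actinin of non-muscle cells, had 1.06, 1.297 and 1.10 TPM in WT, 1.14, 0.690 and 1.05 in DIDO3ΔE16 and 5.57, 7.23 and 7.51 in DIDO3ΔCT+HADIDO3 (2.35, adjusted p = 0.00109), beside the calpain gene Capn12 with 835 to 1398 TPM. Art1, an ADP-ribosyltransferase gene, had 0.432, 0.314 and 0.221 TPM in WT and 2.42, 1.41 and 1.93 in DIDO3ΔCT+HADIDO3 (2.17, adjusted p = 0.00693), beside Chrna10, a nicotinic receptor subunit, with 2.09 to 3.56 TPM over all libraries. In both pairs the sum stayed under the fold threshold (log2 fold changes −0.26 and 0.21).

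The remaining pairs with both features called in DIDO3ΔCT+HADIDO3 are named because they complete the counts, after their values were seen. Card14/Sgsh rose (log2 fold changes 1.05 and 1.19) and Vps13b/Cox6c fell (−1.66 and −0.88). Rsf1/Rsf1os2 was called in opposite directions, with −1.07 for Rsf1, a chromatin remodelling factor, and 1.27 for Rsf1os2. None of the 3 had a sum with a wide range. Sgsh is a lysosomal sulfatase and Cox6c a subunit of cytochrome c oxidase.

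Trim28/Chmp2a moved differently in the mutants. Trim28 is the KAP1 corepressor that silences retroelements in ESC, and Chmp2a is a subunit of ESCRT-III. Trim28 had 165, 152 and 167 TPM in WT, 88.5, 94.5 and 92.0 in DIDO3ΔE16 and 293, 300 and 280 in DIDO3ΔCT+HADIDO3. The 3 groups do not overlap, and the log2 fold change against WT was −0.88 in DIDO3ΔE16 (standard error 0.05, adjusted p = 0.00099) and 0.75 in DIDO3ΔCT+HADIDO3 (0.06, 0.00146). Between the mutants it was −1.65 (adjusted p = 6.78e-05). Chmp2a had 1590.4 to 1806 TPM in WT, 2038 to 2337 in DIDO3ΔE16 and 1760 to 2039 in DIDO3ΔCT+HADIDO3 and was called in no comparison. The pair sum followed Chmp2a, with log2 fold changes of 0.19 and 0.12. The 2 features share 1212 bases, 58.6% of the shorter, and their log2 ratio was called in both comparisons with WT (−1.14 and 0.71). How reads of the shared bases were divided between Trim28 and Chmp2a was not tested.

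Of the genes looked up from the study's text and from its list of RNA processing genes, Jam2, Dhx9 and Dhx16 have members. Sugp1, Dhx30 and Ddx39b of that list were not looked up. Jam2, a junctional adhesion molecule (chr16:84822820-84828375, forward), had 125, 120 and 103 TPM in WT, 476, 479 and 476 in DIDO3ΔE16 and 98.7, 95.4 and 98.7 in DIDO3ΔCT+HADIDO3. All DIDO3ΔE16 libraries were far above the rest, with a log2 fold change over WT of 1.98 (standard error 0.07, adjusted p = 0.000263). That of DIDO3ΔCT+HADIDO3 was −0.34, under the threshold. The feature holds all 2087 bases of Atp5j (chr16:84825871-84827957, reverse), which encodes coupling factor 6 of ATP synthase, and the 5 features of Atp5j were listed at 0 in every library. What share of the Jam2 value came from reads on the reverse strand was not tested.

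Dhx9, an RNA helicase that resolves RNA-DNA hybrids, pairs with Shcbp1l over 817 added bases. Dhx9 had 96.1, 81.9 and 84.3 TPM in WT, 102, 99.5 and 106 in DIDO3ΔE16 and 62.4, 61.3 and 68.1 in DIDO3ΔCT+HADIDO3, while Shcbp1l lay between 0.809 and 2.80. Over the 9 libraries, with group means removed, the 2 features varied together (r = 0.958, a description). Their ratio was called in DIDO3ΔCT+HADIDO3 against WT (1.24, adjusted p = 0.0353) and between the mutants (−0.93, adjusted p = 0.0212). Against WT the changes of Dhx9 (0.17 and −0.54) were under the threshold, and between the mutants it was called (0.70, adjusted p = 0.000547). The range of this pair within groups was 1.19, so it is not among the 55.

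Dhx16, a helicase of the spliceosome, had 47.1, 50.6 and 52.3 TPM in WT, 24.9, 23.03 and 22.96 in DIDO3ΔE16 and 79.6, 84.1 and 77.5 in DIDO3ΔCT+HADIDO3. It was called lower in DIDO3ΔE16 (−1.14, standard error 0.07, adjusted p = 0.00105) and not called in DIDO3ΔCT+HADIDO3 (0.59). It shares 305 bases with 3 features of 2310061I04Rik on the same site, of which uc012arv.1 lay between 3.73 and 351 TPM, both in DIDO3ΔE16. The groups of Dhx16 do not overlap, whereas its partner varied widely within groups.

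The pathway lists held few members, as did the features at large (4.42%). None of 22 pluripotency genes is, against 1 of 30 genes of mRNA 3′ end processing and termination (Fip1l1), 2 of 22 genes of R-loops and DNA repair (Dhx9 and Rnaseh2c) and 1 of 16 germ layer genes (Mixl1). No member of these lists was called against WT. Fip1l1, a subunit of the cleavage and polyadenylation factor, had 1.70, 1.18 and 1.87 TPM in WT, 1.55, 1.71 and 1.51 in DIDO3ΔE16 and 1.48, 1.12 and 1.28 in DIDO3ΔCT+HADIDO3. Both mutant groups overlap WT but not each other, and no comparison called it. Rnaseh2c, a subunit of RNase H2, was listed at 0 in 6 libraries and had 5.28 TPM in DIDO3ΔE16 2 and 1.10 and 1.07 in DIDO3ΔCT+HADIDO3 2 and 3. Mixl1, a gene of the primitive streak, had 3.34, 2.32 and 2.51 TPM in WT, 2.01, 1.35 and 1.14 in DIDO3ΔE16 and 3.03, 2.89 and 3.17 in DIDO3ΔCT+HADIDO3, and was called only between the mutants (−0.98, adjusted p = 0.0254).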

How the data were processed

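RNA-seq features of 9 libraries were analysed. According to the methods and the submitters' processing notes, the authors aligned reads to mm10 with BWA (0.7.15), removed duplicates and ran StringTie (1.3.3) on UCSC 3′UTRs with 2 kb added. TPM values were used as deposited by the authors, and start, end and strand were taken per the file headers and records. Mean coverage served for depth only. The authors' edgeR test was not repeated, since read counts were not used here.

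Members and pairs were found from exon bases. Libraries were scaled by a mean of log2 ratios trimmed by 30% at each end, 0.1 was added, and features, pair sums and ratios were fitted with limma (3.58.1, R 4.3.3) with trend and robust estimation, over all features. In sums each pair replaced its 2 features. Ratios were fitted over all overlapping and neighbouring pairs. Tables and figures used Python (3.11.15), pandas (2.3.3), numpy (2.4.6) and matplotlib (3.10.9).

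Named pairs were those called in both features (opposite or same direction) or in 1, ranked by fold change. Also named were pairs with the largest ratios, sums and shared stretches. Selected genes of the study, genes of the lists, and members with values at 0 and high within a group were added. Members, lists and tests were chosen with earlier results of these data known. The kinds of pair, containment, the range threshold and the families of widely used genes were chosen after values were seen, as were Reep1, Map2k1, Cox6a1, Rpl32, Rpl35, Wfdc2 and the contained members named. Families were taken by symbol (ribosomal, proteasome, polymerase, respiratory chain, ATP synthase, initiation factor, mediator, import, splicing and sorting genes).

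The alternatives were other pseudocounts, filters, scalings and thresholds, 1 fit of all 9 libraries, the start of the library code, at least 100 shared bases, start-to-end spans, a block of replicate numbers and omission of single libraries. The fits were tested on simulated data.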

Additional observations from a re-analysis of the deposited data

How the results depend on the processing

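Member calls against WT stayed within 1.5 times under all settings except the library code as a covariate and the block, and with each library left out ranged from 148 to 181 (DIDO3ΔE16), 155 to 179 (DIDO3ΔCT+HADIDO3) and 329 to 338 between the mutants. With the start of the library code as a covariate, DIDO3ΔE16 against WT gave 120 members, 1 pair in the same direction, 1 in opposite directions, 30 with 1 feature called and 19 sums, and the cause was not tested.

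The replicate numbers do not pair the libraries. With the number as a block, both comparisons with WT gave 0 members, 0 pairs in each class with a call and 0 sums, and DIDO3ΔE16 against WT gave 33 ratios. Between the mutants the block gave 11 pairs in the same direction and 1 in opposite directions. Same-numbered libraries of different groups correlated at −0.0188 to 0.0227 in their deviations from group means over 24472 features, and not every library correlated best with its own number. Against WT, the number of WT 4 does not occur in the mutant, and number 3 of the mutant does not occur in WT. The block takes up both libraries, and only numbers 1 and 2 (with WT 2-3 as 2) inform the comparison. Few degrees of freedom are left, so the 0 calls against WT cannot show whether the calls depend on replicate number.

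Counts of pairs with both features called are small and moved most. For DIDO3ΔCT+HADIDO3 against WT, 1 fit of all 9 libraries gave 9 in the same direction, and a pseudocount of 1 or a mean of at least 1 TPM gave 0 in opposite directions. Between the mutants, a pseudocount of 1 and quantile normalization each gave 1 in opposite directions. With each library left out, same-direction pairs ranged from 1 to 5, 4 to 6 and 9 to 14, and opposite ones from 1 to 1, 0 to 1 and 0 to 2, in DIDO3ΔE16 against WT, DIDO3ΔCT+HADIDO3 against WT and between the mutants. For the 2 comparisons with WT, 5 same-direction pairs were counted without WT 2-3 and 1 without DIDO3ΔE16 2 in DIDO3ΔE16, and 0 opposite pairs without WT 4 or DIDO3ΔCT+HADIDO3 2. Between the mutants, leaving out DIDO3ΔE16 2, DIDO3ΔE16 3 or DIDO3ΔCT+HADIDO3 2 gave 9, 11 and 10 same-direction pairs, and opposite pairs numbered 1, 0 and 0, and 1 without DIDO3ΔCT+HADIDO3 1.

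Of 4502 values for named features, sums and ratios under these settings, 4238 kept their side of the threshold, 198 lost their call, 66 gained one and none turned direction after a call. The 4238 include 256 under start-to-end spans and 252 with at least 100 shared bases. Those settings change the members and pairs and not the fit of single features. Values not called in the main fit are included as well, so the 198 are not a share of calls.

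Sums called without the pairs of wide ranges, an alternative chosen after seeing the data, are given above. The share of pairs with wide ranges, among those in which only added bases overlap, was 57.3% to 62.1% with other mean levels and range limits, chosen after seeing the data. The median r of these pairs was 0.542 by Spearman and 0.791 with a mean of at least 1 TPM. Depth limits values under 1 TPM, where coverage was below 1 read per base.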
